A study of Mus musculus with 24 samples.

Results

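Linker histones and replacement histones, the proteins that take the place of standard histones outside DNA replication, were followed here through 9 of the 55471 genes counted. H1foo, H1f0, H1fx, Hist1h1a and Hist1h1c encode linker histones. H2afz, H2afy, H3f3a and H3f3b encode variants of the core histones H2A and H3. The genes were chosen by name, with earlier results of these counts known, so their levels and differences are a description and carry no test. Newer symbols of the same genes are H1f8 for H1foo, H1f10 for H1fx, H1f1 for Hist1h1a, H1f2 for Hist1h1c, H2az1 for H2afz and Macroh2a1 for H2afy.

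The counts come from mouse embryos at L2C, the usual short form of the late 2-cell stage, and at the morula stage. Each of the 24 libraries held 10 embryos, and each of the 6 groups had 4 libraries. Zygotes came from superovulated B6D2F1 females of 3 to 4 weeks mated with males of that strain. For the knockouts, Cas9 protein at 100 ng/µL and 3 guide RNAs per gene at 50 ng/µL each were injected into the cytoplasm, and the embryos were grown in KSOM medium. The 6 groups were wild type (WT), Ttf1 knockout (KO) and Zfp622 KO, each at both stages. What NC stands for in the WT titles is not given, and whether WT zygotes were injected is not stated. Injected zygotes were used directly, so a library pools embryos that can carry different edits. Genotype and strain labels count upward from library to library (7 of the 8 Zfp622 KO libraries name another gene, and strains run on from B6D2F1), so groups were taken from the titles. Per the file headers, all 8 Ttf1 KO libraries carry number 1 and all others number 2, taken here as the sequencing lane. Lane in this sense and Ttf1 KO cannot be told apart.

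Linker histones bind the DNA between nucleosomes and help to fold chromatin. The oocyte carries its own linker histone, made from H1foo, and cleavage-stage embryos exchange it for somatic types. Histone H3 variant H3.3 and the H2A variant H2A.Z can be loaded outside replication, mostly at active genes and their promoters, whereas macroH2A, made from H2afy, is known from silent chromatin such as the inactive X chromosome. Most somatic linker histone genes are replication-dependent: their mRNAs usually end in a stem-loop in place of a poly(A) tail, while those of H1f0, H1foo, H2afz, H2afy, H3f3a and H3f3b carry one. The libraries were primed with oligo-dT, so stem-loop mRNAs were captured only as far as they were polyadenylated.

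The proximal promoters of 5 linker histone genes are shown because these genes separate into types that were high at L2C and types that were high at the morula stage. Each stretch covers the 140 bases from 150 to 11 bases before the RefSeq start on GRCm38.p6, and capitals mark AAACACA, the H1 box of linker histone promoters, and the CCAAT box on either strand (ATTGG is CCAAT on the opposite strand).
H1foo, chr6:115944781-115944920, plus strand: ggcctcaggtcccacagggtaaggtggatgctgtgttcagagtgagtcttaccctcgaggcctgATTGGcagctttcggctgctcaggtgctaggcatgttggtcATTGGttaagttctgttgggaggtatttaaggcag
Hist1h1a, chr13:23763518-23763657, plus strand: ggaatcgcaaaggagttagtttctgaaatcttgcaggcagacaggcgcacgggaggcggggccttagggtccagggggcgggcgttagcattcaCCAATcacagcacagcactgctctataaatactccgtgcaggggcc
Hist1h1b, chr13:21780636-21780775, minus strand: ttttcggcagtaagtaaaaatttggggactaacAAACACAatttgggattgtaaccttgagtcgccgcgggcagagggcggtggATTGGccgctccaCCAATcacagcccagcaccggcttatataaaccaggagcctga
Hist1h1c, chr13:23738657-23738796, plus strand: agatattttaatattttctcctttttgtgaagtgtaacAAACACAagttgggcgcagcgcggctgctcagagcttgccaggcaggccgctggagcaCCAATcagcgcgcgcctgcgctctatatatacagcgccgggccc
Hist1h1e, chr13:23622569-23622708, minus strand: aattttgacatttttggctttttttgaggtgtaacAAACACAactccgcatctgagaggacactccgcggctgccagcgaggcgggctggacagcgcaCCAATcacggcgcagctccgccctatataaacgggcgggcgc

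AAACACA stood 117 bases before the start in Hist1h1b, 112 in Hist1h1c and 115 in Hist1h1e, in each case on the gene's own strand. It was not in the windows of Hist1h1a and H1foo. Of the linker histones not printed, Hist1h1d held it 122 bases before the start on its own strand, and H1f0 and H1fx lacked it. The printed genes were picked by their levels in these data, so no link between the box and the stage is read from them. CCAAT stood on the gene's strand 56 bases before the start in Hist1h1a, 53 in Hist1h1b, 54 in Hist1h1c and 52 in Hist1h1e, whereas H1foo held it on the opposite strand, 45 and 86 bases before the start. Of 32851 RefSeq promoters of 27025 genes, 3.34% held AAACACA and 23.6% held CCAAT in the same window on either strand. The 16-base stem-loop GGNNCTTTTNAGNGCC, searched on the sense strand with N for any base, was in the annotated transcript of 47 of 21901 protein-coding genes (0.215%). Among the 9 genes it was found in Hist1h1c only, as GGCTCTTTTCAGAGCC, and the annotated Hist1h1c transcript runs 840 bases beyond it. A match is a string of letters, not a shown site, and the absence of one concerns these windows and transcripts only.

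Total counts per library ran from 10538723 to 17807596. Levels are in CPM, with counts scaled to library sizes that were adjusted by edgeR's TMM scaling across all 24 libraries. With total counts alone, the WT mean of H3f3a was 1131 CPM at L2C and 1368 in morulae, against 934 and 1681 in the scaling used. Differences are log2 fold changes from edgeR's quasi-likelihood fit. Ttf1 mRNA stood at 27.1 ± 3.82 CPM in Ttf1 KO against 74 ± 4.27 in WT at L2C (SD, n = 4 each) and at 31.0 ± 1.66 against 52.9 ± 1.5 at the morula stage. Zfp622 mRNA stood at 60.4 ± 18.8 CPM in Zfp622 KO against 161.4 ± 7.39 in WT at L2C and at 18.4 ± 7.49 against 64.0 ± 6.22 at the morula stage. The 10 fixed markers of the 2-cell stage summed to 963 to 1467 CPM in WT L2C libraries and 45.4 to 87.3 in WT morulae, and the 10 markers of the morula to 1027 to 1570 and 5315 to 6440. Knockout L2C libraries overlapped WT in the 2-cell markers, at 651 to 1017 CPM in Ttf1 KO and 730 to 1409 in Zfp622 KO. In knockout morulae the morula markers summed to 4587 to 4736 CPM for Ttf1 KO and 4393 to 5136 in Zfp622 KO, below every WT library. The 2-cell markers there summed to 56.0 to 173 and 73.4 to 98.2 CPM, overlapping WT. The 15 blood markers summed to 13 to 17 CPM in WT, 28.2 to 46.5 in Ttf1 KO and 34.6 to 46.3 in Zfp622 KO, with 7, 5 and 5 of them at 0 counts. Sums for 16 cumulus and granulosa markers were 20.5 to 29.6, 26.9 to 37.1 and 26.4 to 32.3 CPM, and for 14 sperm markers 19.4 to 25.7, 21.1 to 29.5 and 28.8 to 36.2 CPM. The part of these marker levels in the differences described below was not tested.

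H1foo, the oocyte linker histone (GRCm38 chromosome 6, 115944938 to 115950236), was at its highest in WT L2C embryos and lower in both knockouts at that stage. The 4 WT L2C libraries held 40.5, 54.0, 60.3 and 56.7 CPM in the order of their replicate numbers. In Ttf1 KO they held 27.6, 29.4, 31.7 and 30.6 CPM, and in Zfp622 KO 31.1, 31.0, 26.7 and 36.1. Every knockout library was thus below every WT library, and the knockouts overlapped each other. The log2 fold change was -0.83 (SE 0.13) in Ttf1 KO and -0.76 (SE 0.13) in Zfp622 KO, both against the same 4 WT libraries. The libraries are pools of whole embryos, so fewer cells of a kind and less RNA per cell cannot be told apart.

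By the morula stage almost no H1foo mRNA was counted in any group. WT libraries held 11, 8, 6 and 5 H1foo counts, or 0.60 ± 0.25 CPM (SD, n = 4). Ttf1 KO held 18, 15, 10 and 7 counts, or 1.02 ± 0.41 CPM, and Zfp622 KO 11, 12, 5 and 11 counts, or 0.90 ± 0.33 CPM. All 3 groups overlapped, and the log2 fold changes of 0.78 (SE 0.44) and 0.60 (SE 0.46) rest on these few reads. Within WT the log2 fold change from L2C to morula was -6.47 (SE 0.25).

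The H1foo difference in Zfp622 KO at L2C did not rest equally on all libraries. Its call at an adjusted p of at most 0.05 was lost without WT replicate 2 (-0.75), 3 (-0.69) or 4 (-0.72), without Zfp622 KO replicate 1 (-0.76), 2 (-0.75) or 3 (-0.69), and with replicate number as a block (-0.75). In Ttf1 KO the H1foo call was kept under all 13 alternatives, with log2 fold changes from -0.94 to -0.76. WT replicate 1, at 40.5 CPM, was the WT library nearest to the knockouts.

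H1f0, the replacement linker histone of slowly dividing and differentiated cells (chromosome 15, 79028450 to 79030504), varied far less between stages. With total counts alone its WT mean was 22.2 CPM at L2C and 12.9 in morulae. In the scaling used, H1f0 at L2C ran from 17.5 to 19.6 CPM in WT, from 12.5 to 14.2 in Ttf1 KO and from 13.6 to 18.7 in Zfp622 KO. The Ttf1 KO libraries all lay below WT (log2 fold change -0.48, SE 0.13, not past the threshold), and the Zfp622 KO libraries overlapped WT. In morulae H1f0 ran from 13.5 to 21 CPM in WT, from 11 to 19 in Ttf1 KO and from 12 to 28.4 in Zfp622 KO. Replicate 4 was the highest library in each of these 3 groups, and the groups overlapped.

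H1fx, a linker histone of somatic cells (chromosome 6, 87980421 to 87981637), gave 0 to 8 counts in each library and passed no filter on low counts. An antisense gene, Gm5577, whose span overlaps that of H1fx, averaged 157 counts per library against 1.92 for H1fx. The counting did not use strand, and reads over both genes were not assigned to either, so the level of H1fx is uncertain.

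Hist1h1a, a replication-dependent linker histone (chromosome 13, 23763666 to 23764406), was higher at L2C than at the morula stage. The WT libraries held 17.1, 18.7, 18.6 and 14.1 CPM at L2C and 5.77, 7.53, 7.25 and 10.2 CPM in morulae, with no overlap (log2 fold change -1.15, SE 0.20). Ttf1 KO embryos held 15.6, 11.4, 11 and 11.1 CPM at L2C, where replicate 1 alone reached the WT range. Zfp622 KO embryos ran from 13.6 to 18.5 CPM and overlapped WT. The L2C differences were -0.48 (SE 0.16) in Ttf1 KO and -0.17 (SE 0.16) in Zfp622 KO on the log2 scale, and at the morula stage both knockouts overlapped WT.

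Hist1h1c, a replication-dependent linker histone of many somatic tissues (chromosome 13, 23738808 to 23740367), had the opposite order of stages. WT libraries held 3.08, 1.18, 4.33 and 2.31 CPM at L2C and 22.2, 22.5, 29.3 and 31.0 CPM in morulae (log2 fold change 3.26, SE 0.25). At L2C the libraries held 1.41, 0.891, 1.13 and 1.28 CPM in Ttf1 KO and 1.45, 1.72, 1.06 and 1.29 in Zfp622 KO. Both knockouts overlapped only the lowest WT library, replicate 2, and the differences of -1.21 (SE 0.35) and -0.98 (SE 0.34) did not pass the threshold. The Ttf1 KO difference passed it with DESeq2 (-1.22) and with no filter on low counts (-1.22). Among morulae, Ttf1 KO ran from 17 to 29.4 CPM and Zfp622 KO from 15.9 to 23.6 CPM, both overlapping WT (-0.16, SE 0.17, and -0.46, SE 0.17). The Zfp622 KO difference passed the threshold under 7 of 13 alternatives, among them without WT replicate 1 (-0.56) or 2 (-0.53) and without Zfp622 KO replicate 4 (-0.60). Without WT replicates 3 and 4 together it was -0.25 and the Ttf1 KO difference 0.048, neither past the threshold.

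**Figure D1:**
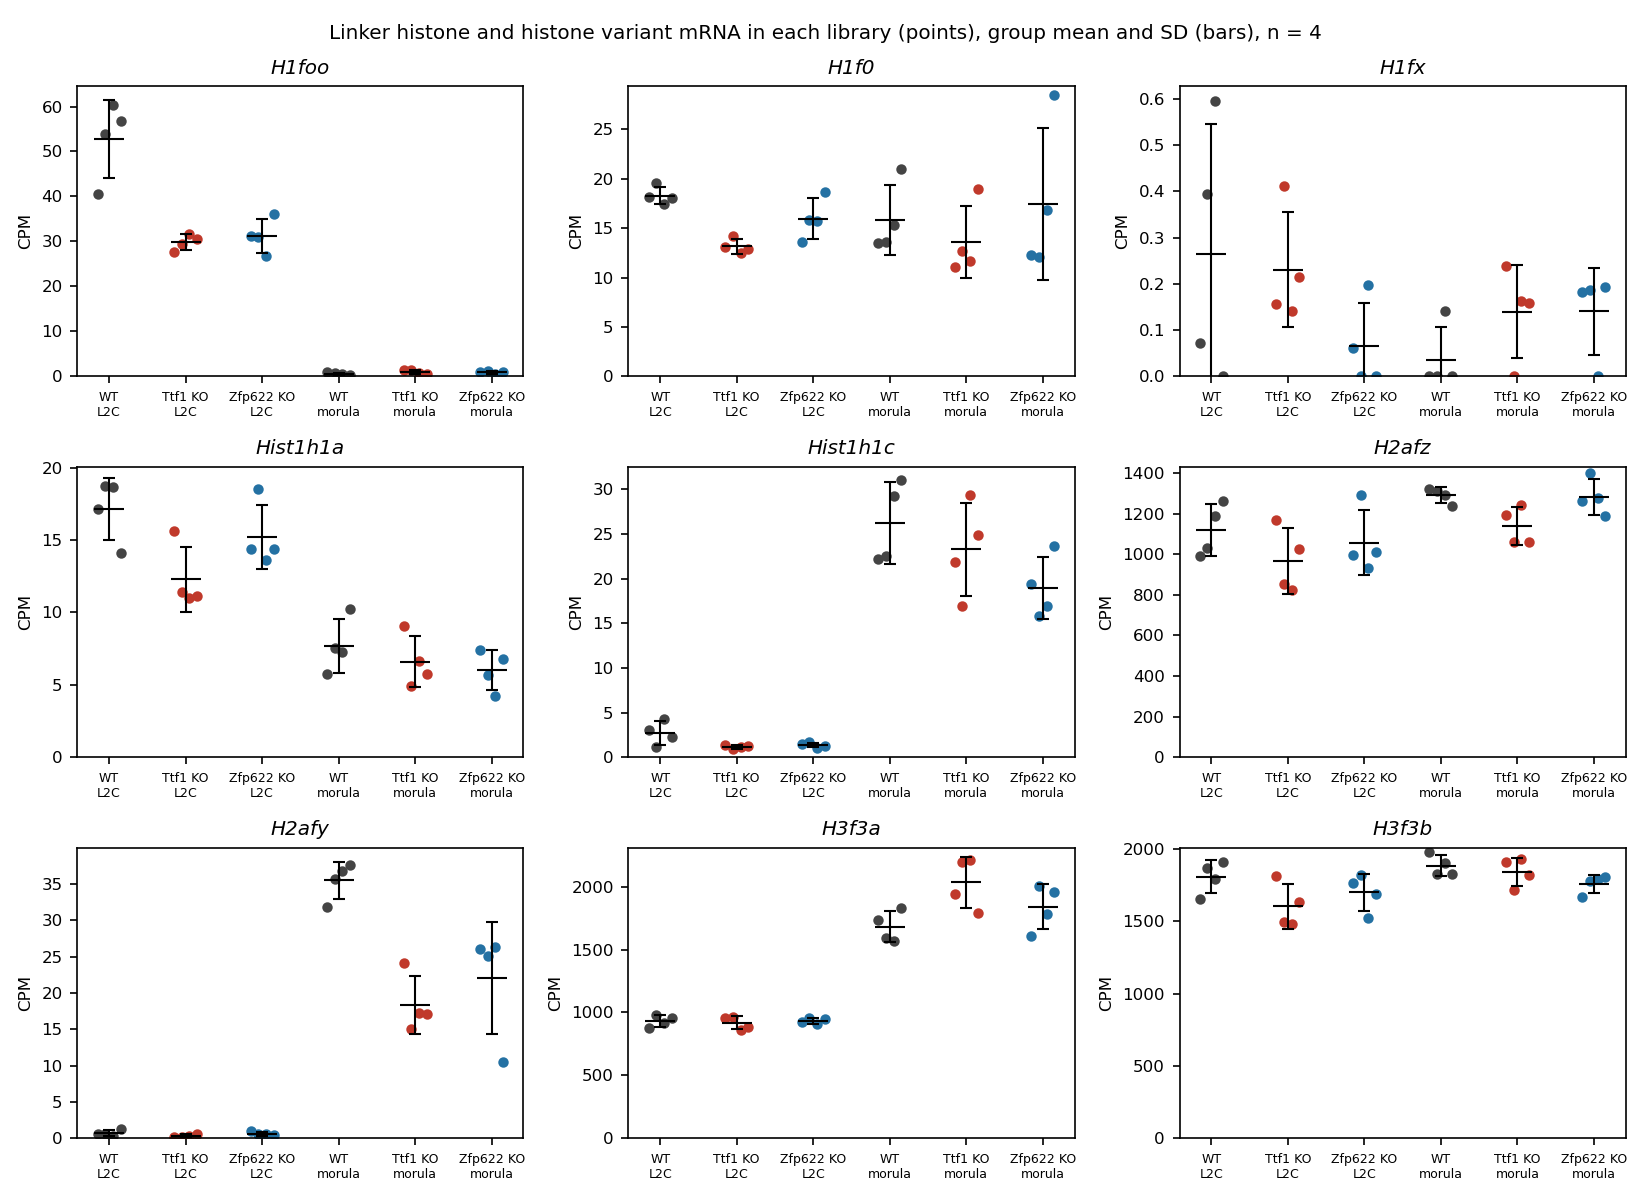
CPM of each of the 9 genes in every library on linear axes from 0, by genotype and stage, with 1 point per library and bars for the group mean and SD (n = 4; SD bars of H1fx are cut at 0). H1foo and Hist1h1a stand higher at L2C, Hist1h1c, H2afy and H3f3a at the morula stage, and the 4 WT L2C points of H1foo lie above all 8 knockout points of that stage.

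Per kilobase of transcript, the order of the linker histone mRNAs differed between the stages. The linker histone level in CPM per kb was summed over the 5 chosen linker histones and Hist1h1b, Hist1h1d and Hist1h1e. The testis types Hist1h1t, H1fnt and Hils1 were also in the sum. H1foo made up 49.5% of it in WT L2C libraries (range 43.9 to 54.6%) and 0.418% in WT morulae. Hist1h1a made up 26.2% and 8.24%, H1f0 10.1% and 6.14%, and Hist1h1c 1.99% and 13.4%. Hist1h1b, which is outside the chosen genes, held 11.6% at L2C and 63.6% at the morula stage. The order in WT L2C was thus H1foo, Hist1h1a, Hist1h1b, H1f0, Hist1h1c, with means of 44.0, 23.1, 10.3, 8.90 and 1.75 CPM per kb. In WT morulae Hist1h1b led with a mean of 79.6 CPM per kb, followed by Hist1h1c (16.8), Hist1h1a (10.4), Hist1h1e (7.90), H1f0 (7.71), Hist1h1d (2.22) and H1foo (0.498). Hist1h1e and H1f0 there overlapped in their shares of the sum (5.82 to 6.81% and 5.44 to 7.40%). These orders and shares rest on annotated lengths, which outside the testis types run from 741 bases for Hist1h1a to 7425 for Hist1h1d. Stem-loop mRNAs were captured only as far as they were polyadenylated, so the shares need not be those of all linker histone mRNA.

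The summed linker histone level was lower in the knockouts at L2C. It was 88.5 ± 9.12 CPM per kb in WT (SD, n = 4; range 76.7 to 97.6), 56.2 ± 4.84 in Ttf1 KO (53.4 to 63.5) and 63.8 ± 5.97 in Zfp622 KO (56.0 to 69.8), so no knockout library reached WT. The H1foo share of it was 44.5% in Ttf1 KO (36.2 to 48.7%) and 40.8% in Zfp622 KO (37.0 to 45.0%), both overlapping WT. At the morula stage the sum was 125.3 ± 15.3 CPM per kb in WT (105.7 to 138.1), 91.4 ± 19.4 in Ttf1 KO (63.5 to 107.6) and 83.3 ± 16.3 in Zfp622 KO (67.8 to 102.1). Zfp622 KO lay below every WT library there and Ttf1 KO overlapped, and Hist1h1b still made up 58.1% and 57.0%.

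**Figure D2:**
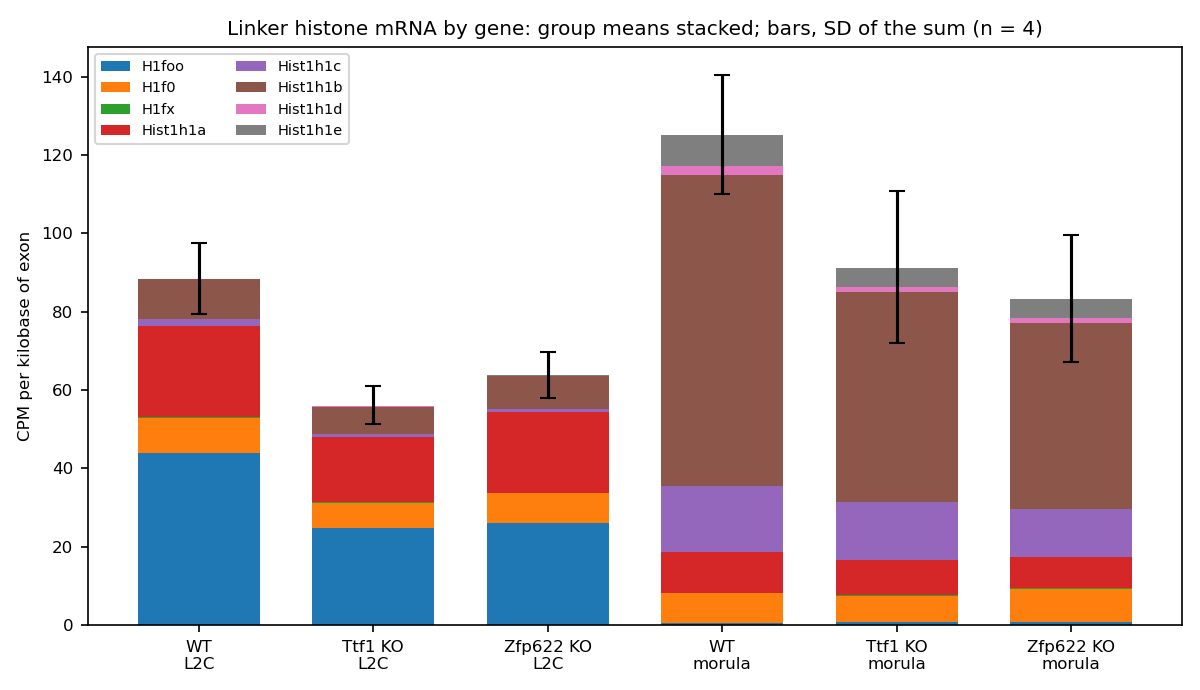
Mean CPM per kb of each linker histone gene, stacked by group, with bars for the SD of the summed level (n = 4). The H1foo block makes up 49.5% of the WT L2C bar and is barely visible at the morula stage, where Hist1h1b makes up 57.0 to 63.6% of each bar.

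H2afz, one of the genes for H2A.Z (chromosome 3, 137864487 to 137866922), stood near the same level in all 6 groups in the scaling used. With total counts alone its WT mean was 1352 CPM at L2C and 1050 in morulae. In the scaling used, H2afz ran from 991 to 1261 CPM in WT at L2C, from 821 to 1167 in Ttf1 KO and from 932 to 1291 in Zfp622 KO. In morulae it ran from 1235 to 1323 CPM in WT, from 1059 to 1244 in Ttf1 KO and from 1187 to 1400 in Zfp622 KO. The groups overlapped in each case, and all log2 fold changes against WT were between -0.21 and 0.00. The difference in Ttf1 KO morulae (-0.17, SE 0.07) passed the threshold under 6 of 13 alternatives, among them without WT replicate 3 (-0.21) or 4 (-0.21) and without Ttf1 KO replicate 3 (-0.22). H2afv encodes the other form of H2A.Z. H2afz made up 83.9% of the 2 genes' summed CPM per kb in WT at L2C (81.8 to 85.7%), with both knockouts overlapping. In WT morulae it made up 89.5% (89.0 to 89.9%), against 83.4% in Ttf1 KO (81.5 to 85.0%) and 85.6% in Zfp622 KO (83.9 to 86.4%), with neither knockout reaching WT. H2afz has near-identical copies elsewhere in the genome, and reads that map to several places were not counted, so its level is uncertain.

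H2afy, the gene for macroH2A1 (chromosome 13, 56073619 to 56136361), was almost off at L2C and present in morulae. At L2C it stood at 0.69 ± 0.41 CPM in WT, 0.36 ± 0.20 in Ttf1 KO and 0.63 ± 0.25 in Zfp622 KO (SD, n = 4 each), too low to pass the filter there. WT morulae held 31.9, 35.7, 36.8 and 37.6 CPM. Ttf1 KO morulae held 24.1, 15, 17.3 and 17.2 CPM, and Zfp622 KO morulae 26.1, 25.1, 26.3 and 10.5. No knockout library reached the lowest WT library. The log2 fold changes were -0.95 (SE 0.23) and -0.68 (SE 0.23), and the difference between the stages in WT was 5.64 (SE 0.32).

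Replicate 4 of Zfp622 KO stood apart for H2afy at 10.5 CPM, and the same library had the lowest Zfp622 level of its group, 7.45 CPM against 20.5 to 24.2, and the highest H1f0. Without it the H2afy log2 fold change was -0.46, still past the threshold. The call in Zfp622 KO was lost without WT replicate 2 (-0.67), 3 (-0.69) or 4 (-0.66), and without WT replicates 3 and 4 together (-0.62). In Ttf1 KO the H2afy call was kept under all 13 alternatives, from -1.09 to -0.88.

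H3f3a and H3f3b encode the same protein, histone H3.3, from separate genes (H3f3a on chromosome 1, 180800832 to 180813943, and H3f3b on chromosome 11, 116021912 to 116027962). H3f3a stood higher in morulae: WT libraries held 874, 983, 919 and 959 CPM at L2C and 1734, 1591, 1568 and 1832 CPM in morulae, with no overlap (log2 fold change 0.85, SE 0.08). At L2C the knockouts overlapped WT, at 919 ± 50.7 CPM in Ttf1 KO and 934 ± 22.9 in Zfp622 KO against 934 ± 48.1 in WT. Ttf1 KO morulae held 1942, 2193, 2212 and 1787 CPM and overlapped WT through replicate 4 (log2 fold change 0.28, SE 0.09). That call was lost without WT replicate 2 (0.25) or 3 (0.21), without Ttf1 KO replicate 2 (0.23) or 3 (0.23), and without WT replicates 3 and 4 together (0.28). Zfp622 KO morulae ran from 1612 to 2008 CPM and overlapped WT (0.14, SE 0.09).

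H3f3b was nearly level in the scaling used: WT ran from 1651 to 1910 CPM at L2C and from 1826 to 1978 in morulae (log2 fold change 0.06, SE 0.07). With total counts alone its WT mean was 2186 CPM at L2C and 1532 in morulae. In Zfp622 KO morulae H3f3b ran from 1668 to 1801 CPM in the scaling used, below every WT library. That log2 fold change of -0.09 (SE 0.06) did not pass the threshold. H3f3a therefore supplied a larger share of the H3.3 mRNA at the later stage, taken as H3f3a over the sum of both in CPM per kb. That share was 30.5 ± 0.523% in WT L2C libraries and 43.1 ± 2.05% in WT morulae (SD, n = 4 each). At L2C it was 32.8% in Ttf1 KO (31.0 to 35.5%) and 31.9% in Zfp622 KO (30.8 to 33.6%), and at the morula stage 48.3% (45.5 to 52.1%) and 47.0% (45.1 to 49.0%), each overlapping the WT range. Both genes have near-identical copies, so their levels carry the same uncertainty as that of H2afz.

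**Figure D3:**
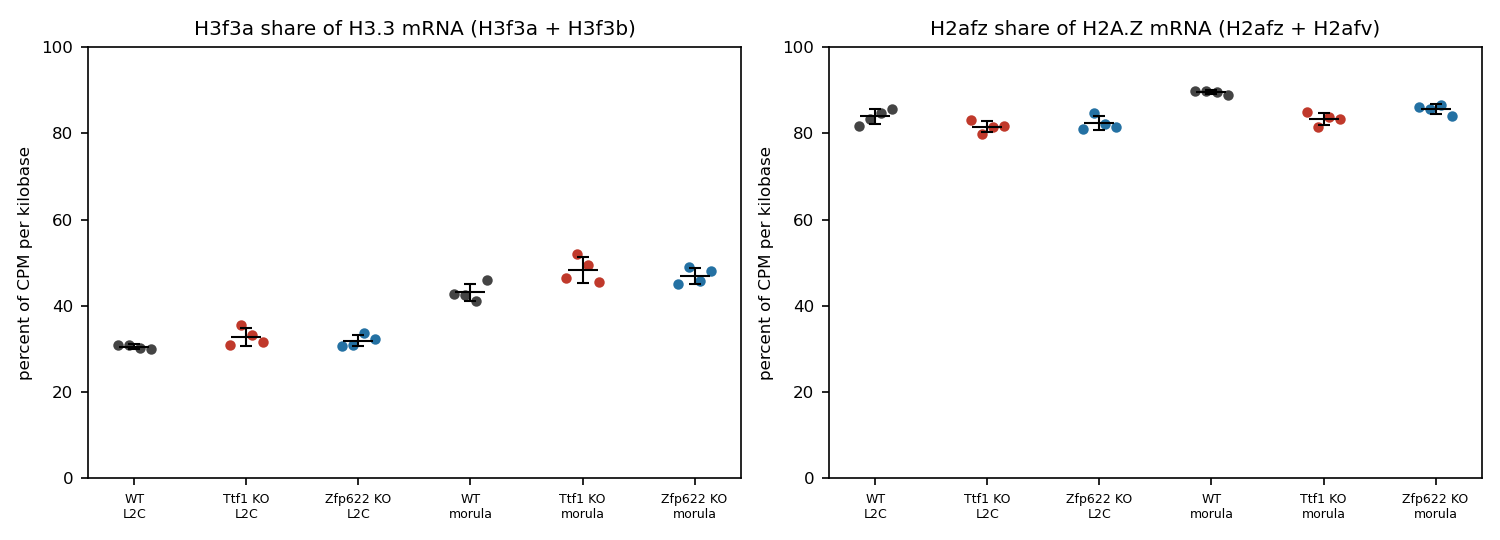
Share of H3f3a in the summed CPM per kb of H3f3a and H3f3b, and of H2afz in that of H2afz and H2afv, with 1 point per library and bars for the group mean and SD (n = 4). The H3f3a share stands at 30.5% in WT L2C and 43.1% in WT morulae, and the WT morula points of H2afz (89.0 to 89.9%) lie above all knockout morula points.

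Counted over the chosen genes, calls at an adjusted p of at most 0.05 from edgeR stood beside those over all genes as follows, and nothing is read from them, since the genes were chosen with these contrasts known. In Ttf1 KO at L2C 1 of 7 tested members was called, H1foo, beside 1.54% of all 16770 genes tested. In Zfp622 KO at L2C it was again 1 of 7, H1foo, beside 0.0179%, that is 3 genes. At the morula stage 2 of 8 were called in Ttf1 KO (H2afy lower, H3f3a higher) beside 39.2% of 14865 genes, and 1 of 8 in Zfp622 KO (H2afy lower) beside 29.1%. The median log2 fold change of the tested members was -0.48 and -0.17 at L2C and -0.17 and -0.04 at the morula stage, beside medians of all genes between -0.00 and 0.04. Libraries of KO and WT did not overlap for 2 of 7 and 1 of 7 members at L2C, beside 9.93% and 3.24% of all genes. In morulae that held for 1 of 8 and 2 of 8, beside 36.4% and 30.6%.

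Set against each other, the knockouts gave no called member by edgeR at either stage. At L2C 0 of 7 had an unadjusted p under 0.05 by edgeR, beside 1362 of all 16770 genes tested, and DESeq2 called 0. Of all genes there, edgeR called 0.0358%. At the morula stage 1 of 8 had such a p, beside 1959 of all 14865 genes tested, and DESeq2 called 0. Of all genes there, edgeR called 0.229%.

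**Figure D4:**
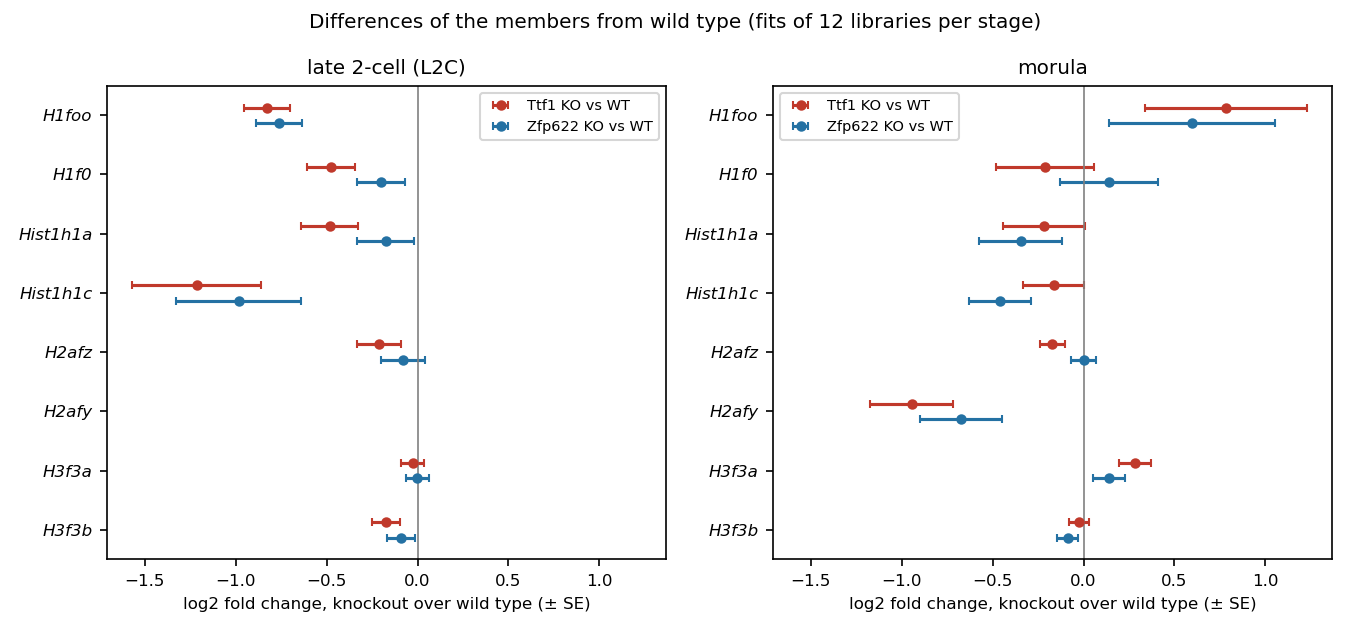
Log2 fold change of each tested member against WT in both knockouts at each stage, with bars of 1 SE. At L2C the H1foo points lie at -0.83 and -0.76, and at the morula stage the H2afy points lie at -0.95 and -0.68. H1fx was not tested at either stage, nor H2afy at L2C.

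Between the stages in WT, 5 of 8 tested members were called, beside 84% of 18864 genes, and the libraries did not overlap for the same count, beside 79.8%. H1foo and Hist1h1a were lower in morulae, and Hist1h1c, H2afy and H3f3a higher. H2afz (0.21, SE 0.10), H3f3b (0.06, SE 0.07) and H1f0 (-0.21, SE 0.21) did not pass the threshold, and the median gene stood at -0.30. With scaling by total counts alone the median gene moved to -0.87, and H2afz turned to -0.37 and H3f3b to -0.51, so no direction between the stages is given for these. Under that scaling H1f0 stood at -0.78 and passed the threshold, and the H3f3a value was 0.27 in place of 0.85, still past it. In the difference of the Ttf1 KO effect between the stages (morula minus L2C), 3 of 8 members were called beside 21.2% of genes: H1foo at 1.61 (SE 0.38), Hist1h1c at 1.04 (SE 0.37) and H3f3a at 0.30 (SE 0.11). For Zfp622 KO it was 1 of 8, H1foo at 1.34 (SE 0.40), beside 10.7%. The H1foo values rest on 5 to 18 counts per library at the morula stage. Only some WT libraries carry a second number in their file header (L2C replicate 4 and morula replicates 3 and 4). Its meaning is not given, and it is called an index number here. Without these libraries the H1foo values were 1.15 and 0.88, neither past the threshold. The Zfp622 KO value for H1foo also lost its call without WT morula replicate 3 (1.20) or 4 (1.18) and without Zfp622 KO morula replicate 1 (1.27), 2 (1.21) or 4 (1.25). The Hist1h1c value lost its call under 9 of 21 alternatives, each of which left out 1 library. These were WT L2C replicates 1 (0.99) and 3 (0.74), WT morula replicates 1 (0.96) and 2 (0.97), Ttf1 KO L2C replicates 2 (0.92), 3 (1.02) and 4 (1.08), and Ttf1 KO morula replicates 3 (0.90) and 4 (1.00). The H3f3a value lost its call under 17 of 21 alternatives, at 0.25 to 0.32, and kept it only under the 4 that left out WT L2C replicate 1, WT morula replicate 4, or Ttf1 KO morula replicate 1 or 4.

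Further linker histone genes, each tested singly, were lower in both knockouts at the morula stage. Like the other lists below, this one was chosen with earlier results known, and its counts are a description. Hist1h1b, Hist1h1d and Hist1h1e, all replication-dependent, were the 3 of 6 listed genes that passed the filter (the others are testis types), and 3 of 3 fell in Ttf1 KO and 3 of 3 in Zfp622 KO, beside 17.9% and 13.5% of all genes called lower. Their median log2 fold changes were -0.66 and -0.74, beside 0.04 and 0.03 for all genes. Hist1h1b stood at 59.1 ± 7.05 CPM in WT, 39.8 ± 10.2 in Ttf1 KO (log2 fold change -0.56, edgeR adjusted p = 0.0199) and 35.3 ± 6.90 in Zfp622 KO (-0.74, adjusted p = 0.00656; SD, n = 4 each). Hist1h1e stood at 15.2 CPM in WT, 9.62 in Ttf1 KO (-0.66, edgeR adjusted p = 0.0117) and 9.22 in Zfp622 KO (-0.72, adjusted p = 0.0101). Hist1h1d fell by 0.68 and 0.76 on the log2 scale (edgeR adjusted p = 0.0254 and 0.0213). All 6 calls were lost without WT morula replicates 3 and 4, at -0.46, -0.48 and -0.58 in Ttf1 KO and -0.63, -0.55 and -0.63 in Zfp622 KO for Hist1h1b, Hist1h1d and Hist1h1e. Hist1h1d also lost its call in Ttf1 KO without WT replicate 3 (-0.67) or 4 (-0.61) or Ttf1 KO replicate 1 (-0.63) or 2 (-0.58), and in Zfp622 KO without WT replicate 4 (-0.69). From L2C to morula in WT all 3 rose: Hist1h1b from 7.62 to 59.1 CPM, Hist1h1d from 0.72 to 16.5 CPM and Hist1h1e from 0.18 to 15.2 CPM.

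Beside these list counts, edgeR called 21.3% of all genes higher and 17.9% lower in Ttf1 KO morulae, and 15.6% higher and 13.5% lower in Zfp622 KO morulae. Among 17 further histone variant genes, 7 passed the filter at the morula stage, with 3 higher and 2 lower in Ttf1 KO and 2 higher and 1 lower in Zfp622 KO. H2afv, the partner of H2afz, rose from 138.5 CPM in WT to 208.3 in Ttf1 KO (log2 fold change 0.60, edgeR adjusted p = 2.83e-05) and 198.6 in Zfp622 KO (0.53, adjusted p = 0.000153). H2afj, a replacement H2A, rose from 24.4 CPM to 45.9 (0.92, edgeR adjusted p = 1.13e-05) and 40.6 (0.74, adjusted p = 0.000131). Cenpa, the H3 variant of centromeres, fell from 398.5 CPM to 315.5 (-0.33, edgeR adjusted p = 0.000988) and 304.9 (-0.37, adjusted p = 0.000618). Calls of H2afv, H2afj and Cenpa were kept under all 13 alternatives in each knockout. The remaining gene higher in Ttf1 KO was H2afy2, the paralog of H2afy, at 0.91 against 0.32 CPM, named after its value was seen because it lies under 5 CPM. H2afx, the H2A variant of DNA damage signalling, was the other variant lower in Ttf1 KO (-0.48, edgeR adjusted p = 0.025). Its call was lost under 7 of 13 alternatives: with the replicate block (-0.49), without WT replicate 2 (-0.48), 3 (-0.48) or 4 (-0.49), without WT replicates 3 and 4 together (-0.43), and without Ttf1 KO replicate 1 (-0.44) or 2 (-0.39).

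Genes that load, escort or modify these histones moved in both directions at the morula stage. Of 10 H3.3 chaperones 1 rose and 2 fell in Ttf1 KO and 0 rose and 3 fell in Zfp622 KO. Nasp, a histone H3 chaperone that also binds linker histones, fell by 0.42 and 0.54 on the log2 scale (edgeR adjusted p = 0.000299 and 9.04e-05). Of 23 H2A.Z loading and removal genes 3 rose and 7 fell, and 3 rose and 6 fell. Of 7 CENP-A loading genes 2 rose and 3 fell, and 0 rose and 3 fell. Of 14 genes for H3.1-H4 chaperones and replication-coupled assembly 0 rose and 5 fell, and 1 rose and 2 fell. Of 10 tested H2A-H2B and H1 chaperones 3 rose and 4 fell, and 2 rose and 2 fell. Npm2, the egg nucleoplasmin, rose from 4.18 CPM in WT to 10.6 and 9.21 CPM (log2 fold change 1.34 and 1.15, edgeR adjusted p = 0.000218 and 0.0014).

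Of 22 genes for replication-dependent histone mRNA processing and transcription 2 rose and 10 fell in Ttf1 KO and 2 rose and 7 fell in Zfp622 KO. Ccne1, the cyclin E that drives entry into S phase, fell by 0.88 and 0.65 on the log2 scale (edgeR adjusted p = 0.000372 and 0.00411). Of 18 modifiers and readers 4 rose and 5 fell, and 2 rose and 3 fell. Haspin, the kinase for threonine near the end of the histone H3 tail, fell by 0.95 and 0.75 (edgeR adjusted p = 0.000391 and 0.00339). Of 39 tested replication-dependent core histones 4 rose and 4 fell in Ttf1 KO, and 0 rose and 11 fell in Zfp622 KO. Summed over all 58 listed core histones, the mean was 477 CPM in WT morulae (414 to 520). It was 416 in Ttf1 KO (316 to 466) and 346 in Zfp622 KO (286 to 418), both overlapping WT.

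Lists that mark the stage or a stress response were read beside these. Of 41 tested oocyte transcripts other than H1foo, 27 rose and 2 fell in Ttf1 KO morulae and 25 rose and 2 fell in Zfp622 KO morulae (medians 1.20 and 0.88). Of 27 tested 2-cell transcripts 12 rose and 2 fell, and 10 rose and 2 fell. The filter on low counts admits a gene that clears it in a knockout group alone. Oocyte and 2-cell genes low in WT morulae could enter that way and tilt these counts and medians upward, by an amount that was not tested. Of 34 tested p53 targets 26 rose and 3 fell, and 28 rose and 1 fell. The part of these movements in the levels of the 9 genes was not tested.

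**Figure D5:**
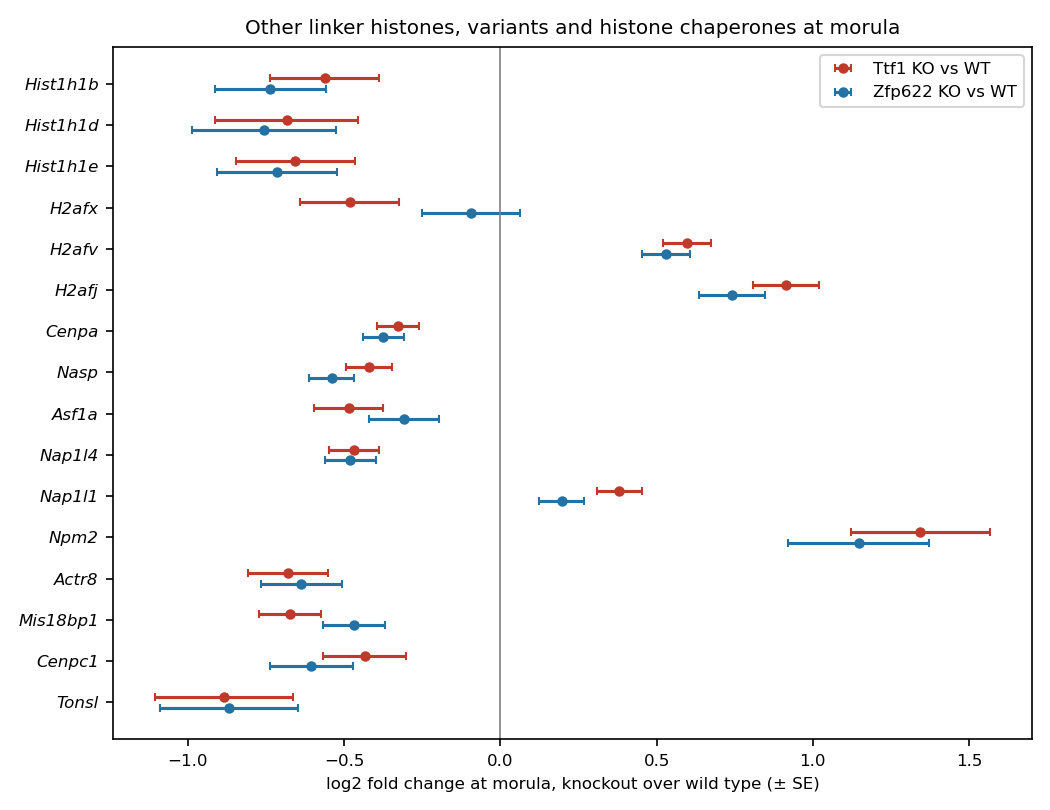
Log2 fold change of 16 listed histone, chaperone and loading genes against WT at the morula stage in both knockouts, with bars of 1 SE. The 3 linker histones at the top lie between -0.56 and -0.76, and H2afv, H2afj, Nap1l1 and Npm2 lie above 0 in both knockouts.

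At L2C few listed genes were called, beside 0.739% of all genes higher and 0.799% lower in Ttf1 KO. Ttf1 KO had 7 calls over the 13 lists, among them Set, a chaperone that binds linker histones, at 842 CPM against 1162 in WT (log2 fold change -0.47, edgeR adjusted p = 0.0132), whose call was lost without WT replicate 2 (-0.40). Of 57 tested oocyte transcripts 3 fell and 0 rose, with a median of -0.13. Zfp622 KO had 0 calls over the 13 lists by edgeR, beside 0.0179% of all genes, and DESeq2 called 1. Of the 255 list entries 24 had an unadjusted p under 0.05 by edgeR, beside 1079 of all 16770 genes tested. From L2C to morula in WT, 54 of 57 oocyte transcripts fell and 3 rose (median -6.29), beside -6.47 for H1foo, and 24 of 38 core histones rose and 3 fell. Of the H3.3 chaperones 7 of 10 fell and 1 rose, and of the H2A-H2B and H1 chaperones 8 of 10 rose and 1 fell. Over all genes 37.9% were higher and 46.1% lower in WT morulae than at L2C.

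Likeness to other genes was measured as Pearson's r of log2 CPM over the 24 libraries, among 10097 genes, and serves as a description only, since the libraries form 2 stage clusters that any stage-dependent pair shares. The nearest to H1foo were Bcl2l10 (0.995), Zfp518a (0.993) and Bpgm (0.992). The nearest to Hist1h1a were Hist1h4c (0.940), Sycp1 (0.938) and Ttc39c (0.936), and to Hist1h1c Hist1h4d (0.983), Pik3r6 (0.983) and Ethe1 (0.980). H2afy lay nearest to Acp5 (0.993), Vrk2 (0.990) and Ak4 (0.989), and H3f3a to Sumo2 (0.990), Syncrip (0.989) and Sat1 (0.988). The steadier genes had weaker partners: Hmgb2 for H2afz (0.809), H2afz for H3f3b (0.790) and Ptp4a2 for H1f0 (0.637).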

How the data were processed

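Per the labels' protocols, RNA of 10 pooled embryos was primed with oligo-dT, copied by template switching, amplified and sequenced as paired reads of 150 bases. The authors deposited 1 table of raw read counts per gene for each library. Per the submitters' processing notes HISAT2 2.2.1 and featureCounts 2.0.1 were used with GRCm38, and per the file headers reads were counted over exons of Ensembl 99, as pairs, with no strand option and without reads that map to several places. From these counts, edgeR 4.0.16 in R 4.3.3 (filterByExpr, TMM scaling, robust quasi-likelihood test, prior count 2, Benjamini-Hochberg adjustment over all genes tested) gave log2 fold changes, and DESeq2 1.42.0 was an alternative. The groups of one stage were fitted together, and all 24 libraries for contrasts between stages. A gene is called at an adjusted p of at most 0.05. The procedure was tested on simulated data.

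The 9 genes and all gene lists were chosen with earlier results of these data known. Of each list and comparison, up to 4 called genes with the largest change and at least 5 CPM in the higher group could be named, and for each of the 9 genes the 3 most alike. The libraries of a group are separate pools of embryos, and p-values measure the spread between them. Replicate numbers are not stated to pair libraries: same-numbered libraries correlated at -0.164 to 0.0859 in their deviations from group means (60 pairs, 0 over 0.1), so no block was used. Alternatives were DESeq2, its size factors, total counts (between stages), no filter on low counts, a replicate block, each library left out, and the 3 WT libraries with a second index number left out.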

Additional observations from a re-analysis of the deposited data

Results flagged for a closer look

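Within groups of 4, single libraries lay far from the others in 4 of 48 levels of 8 genes (H1fx, at 0 to 8 counts, was left out) and 1 of 72 other quantities, where chance flags about 1 in 20 groups. H1foo in Zfp622 KO morula replicate 3 was 0.409 CPM, from 5 counts. Hist1h1a was 15.6 CPM in Ttf1 KO L2C replicate 1 and 18.5 CPM in Zfp622 KO L2C replicate 2, each the highest of its group. H2afy in Zfp622 KO morula replicate 4 was 10.5 CPM, against 25.1 to 26.3 in the others. The summed linker histone level in Ttf1 KO L2C replicate 1 was 63.5 CPM per kb, against 53.4 to 54.3.

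In edgeR's test of the difference of knockout effects between the stages (morula minus L2C), several histone genes were called. For the chosen genes among them the call is a description. On the log2 scale the Ttf1 KO difference was 1.61 for H1foo, 1.04 for Hist1h1c and 0.30 for H3f3a, values that describe chosen genes. Among listed variants it was 0.56 for H2afv (adjusted p = 0.00089), 0.89 for H2afj (0.000569), 1.91 for Hist1h2ba (0.0386) and 3.15 for Hist3h2ba (0.0452). Neither Hist1h2ba nor Hist3h2ba was called against WT in Ttf1 KO at either stage, and their levels are not given. The Zfp622 KO difference was 1.34 for H1foo, 0.44 for H2afv (adjusted p = 0.0126), 0.81 for H2afj (0.00333) and -0.34 for Cenpa (0.0196). Both sets share the WT libraries. The calls of H1foo, Hist1h1c and H3f3a were each lost under some alternatives, as given above, and H1foo had few counts in morulae.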

How the results depend on the processing

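Members called moved as follows, and the cause was not tested. In Ttf1 KO at L2C DESeq2 gave 4 and no filter on low counts 2. DESeq2, its size factors and no filter on low counts each gave 3 in Ttf1 KO morulae, 2 in Zfp622 KO morulae and 2 for the Ttf1 KO difference between stages. With the replicate block, 0 were called in Zfp622 KO at L2C and 2 in Zfp622 KO morulae, and 2 for the Ttf1 KO difference between stages. Without the WT libraries with a second index number, 0 were called in Zfp622 KO at L2C, 1 and 0 in Ttf1 KO and Zfp622 KO morulae, and 1 and 0 for the differences between stages. Total counts gave 8 between stages, and reversed H2afz (-0.37), H3f3b (-0.51) and the listed gene H2afj (-0.040). Leaving out 1 library gave 0 to 1 in Zfp622 KO at L2C, 1 to 3 and 0 to 2 at the morula stage, and 1 to 3 and 0 to 1 for the differences between stages. Of all genes called, 258 in Ttf1 KO at L2C became 60 to 198 with 1 library left out and 66 to 769 otherwise, 3 in Zfp622 KO at L2C 2 to 88, 5833 in Ttf1 KO morulae 3553 to 6283, and 4321 in Zfp622 KO morulae 2043 to 4648. KO against KO, 6 became 1 to 84 at L2C and 34 became 2 to 368 in morulae. The differences between stages gave 3992 (2132 to 4606) and 2010 (646 to 2656). Between stages, 7141 genes were higher and 8701 lower, 5595 and 10420 with total counts.

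Depth limits H1fx at both stages, H2afy and Hist1h1e at L2C, and H1foo in morulae. Lane, as taken from the file headers, and Ttf1 KO cannot be told apart.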
